A study of Mus musculus with 7 samples.

Results

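Egr1, Egr2, Egr3, Egr4, Nr4a1, Nr4a2, Nr4a3 and Npas4 are transcription factor genes that neurons switch on within minutes of electrical activity, and they were chosen by symbol from a deposited table of 55367 genes, in which all 8 were found. The libraries were bulk RNA-seq of total RNA from C57BL/6J mouse brain labelled P90, taken from what the labels call mPFC-LHB projection neurons, cortical cells whose axons reach the lateral habenula. One group was labelled CRS (n = 4 libraries) and its controls noCRS (n = 3 libraries). The series title speaks of chronic stress leading to depression, and the labels do not spell out the abbreviation or how the neurons were marked and collected. Strain, age, region and RNA kit were the same in both groups, and no transgene or virus is named in the labels. The labels do not say that each library came from its own animal, so the p-values rest on spread between libraries that may be technical.

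The Egr proteins are zinc-finger factors that bind GC-rich sites, and Egr1 is the member most used as a marker of recent neuronal activity. The Nr4a proteins are orphan nuclear receptors, active without a known natural hormone, whose level is set mainly by how much of the gene is transcribed. Npas4 is a bHLH-PAS factor known for being restricted to neurons and for responding to calcium entry, while Egr1 and Nr4a1 are also induced in glia and vessel cells by growth factors. In forebrain neurons their promoters are driven by CREB, which binds the cyclic AMP response element (CRE), and by SRF, which binds the CArG box.

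The promoters are shown because they carry the sites through which these genes are known to be induced together. RefSeq promoter windows on GRCm38.p6, running from 250 bases before to 50 after an annotated start, were held for 6 of the 8 genes (Nr4a1, Nr4a2, Nr4a3, Egr2, Egr4 and Npas4). Both strands were searched for the CRE core TGACG, which lies inside the full CRE TGACGTCA, and for the CArG box. All 6 genes had at least 1 window with a CRE core, as did 20.8% of 32851 promoter windows of the same length, and none of their windows had the full CRE, which 1.79% of all windows held. The stretches below lie within the 250 bases before the start and run 5′ to 3′ on the strand of the gene, with CRE cores (as TGACG or its reverse complement CGTCA) and the CArG box in capitals. They lie at chr15:101266596-101266845 on the plus strand (Nr4a1), chr2:57124004-57124253 on the minus strand (Nr4a2), chr4:48045055-48045182 on the plus strand (Nr4a3), chr10:67537619-67537868 on the plus strand (Egr2) and chr19:4990129-4990158 on the minus strand (Npas4). The deposited table starts Nr4a1, Nr4a3, Egr2 and Npas4 upstream of these RefSeq starts. The stretches of Nr4a1, Egr2 and Npas4 therefore lie inside the gene spans given below, and that of Nr4a3 reaches into its span.
Nr4a1: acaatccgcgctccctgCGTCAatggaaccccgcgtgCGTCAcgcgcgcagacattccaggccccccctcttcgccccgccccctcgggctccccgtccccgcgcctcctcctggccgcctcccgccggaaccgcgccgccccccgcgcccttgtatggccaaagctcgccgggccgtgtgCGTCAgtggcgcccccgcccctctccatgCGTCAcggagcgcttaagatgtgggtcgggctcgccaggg
Nr4a2: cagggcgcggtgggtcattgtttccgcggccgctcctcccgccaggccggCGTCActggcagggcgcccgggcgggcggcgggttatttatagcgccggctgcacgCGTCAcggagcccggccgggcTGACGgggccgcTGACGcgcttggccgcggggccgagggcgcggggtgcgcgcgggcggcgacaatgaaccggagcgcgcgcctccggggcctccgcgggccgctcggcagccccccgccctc
Nr4a3: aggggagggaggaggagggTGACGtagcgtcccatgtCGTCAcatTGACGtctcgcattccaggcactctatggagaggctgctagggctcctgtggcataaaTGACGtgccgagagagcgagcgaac
Egr2: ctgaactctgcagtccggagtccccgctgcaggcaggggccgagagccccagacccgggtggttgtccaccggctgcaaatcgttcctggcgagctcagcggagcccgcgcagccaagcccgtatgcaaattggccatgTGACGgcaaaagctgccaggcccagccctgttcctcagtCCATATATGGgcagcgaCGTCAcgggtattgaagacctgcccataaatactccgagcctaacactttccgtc
Npas4: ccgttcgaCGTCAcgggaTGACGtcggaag

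Each of the 3 Nr4a windows held 4 CRE cores, a number reached by 0.231% of all promoter windows. The windows of Npas4 and Egr4 held 2 each, as did the Egr2 window shown, and at least 2 were present in 5.01% of all windows. A CArG box lay in 4 of the 5 windows of Egr2, which has several annotated starts, and in 1.63% of all windows. In 3 of the Egr2 windows the box and 2 CRE cores kept the same spacing and were only shifted. Windows of near starts can hold the same stretch, so these 3 windows are not counted as separate boxes. The remaining Egr2 window with a box held no CRE core, so its box lies in a different stretch. The CArG box was not found in the Nr4a, Egr4 or Npas4 windows. The Nr4a site AAAGGTCA was found in none of the 10 windows and in 1.51% of all, and the Egr site GCGNGGGCG once each in the windows of Nr4a1 and Nr4a2 and in 5.55% of all. These matches describe letters in a short window and were not read as bound sites.

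Library totals ran from 32346275 to 39740623 counts in CRS and from 28677703 to 39965667 in noCRS. Levels are given as CPM (counts scaled by library size and TMM factor), and 3 counts equalled 0.0724 to 0.0990 CPM, depending on the library. CRS replicate 2 stood apart from the other 6 libraries along principal component 1 (30.4% of variance). The labelled cell type was checked against marker lists. Pan-neuronal markers, led by Snap25 and Syt1, summed to 3607 to 4840 CPM in CRS libraries and to 555 to 660 CPM in noCRS libraries, with none of the 13 at 0 across a group. Excitatory markers, led by Nrgn and Neurod6, summed to 557 to 793 CPM in CRS and to 22.6 to 42.1 CPM in noCRS, where Slc17a6 was at 0 in every library. Both groups held large amounts of glial transcripts, since oligodendrocyte markers (Cnp among the most abundant) summed to 28253 to 55783 CPM in CRS and 33944 to 39570 CPM in noCRS, and astrocyte markers (led by Apoe and Aldoc) to 6676 to 13725 CPM and 11322 to 14808 CPM. In bulk RNA of this kind, fewer cells of a type and less RNA per cell cannot be told apart.

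All 8 genes had higher mean levels in CRS than in noCRS libraries, and 3 of them rose: Nr4a2, Nr4a3 and Egr3. The test was edgeR's quasi-likelihood test over 17833 genes with Benjamini-Hochberg adjustment and a threshold of 0.05, in which 2.07% of all tested genes were called higher in CRS. All 8 passed the filter on low counts. With calls in either direction counted, the share was 2.30%, and none of the 8 fell. Egr4 and Npas4 had 0 counts in every noCRS library and entered the test through the CRS group alone, so their direction was fixed and they are left out of the next counts. In all 6 other genes every CRS library lay above every noCRS library. Of all tested genes 10.1% had groups apart in that direction and 6.74% in the other, in which none of the 6 did. Fold changes were positive for these 6 genes and for 49.2% of all tested genes, with medians of 3.04 and -0.02 on the log2 scale. The 6 also had an unadjusted edgeR p below 0.05, as did 13.6% of tested genes. Egr2, 1 of the 6, had 0 counts in noCRS replicate 1 and needed CRS libraries to pass the filter, though its direction was not fixed.

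**Figure D1:**
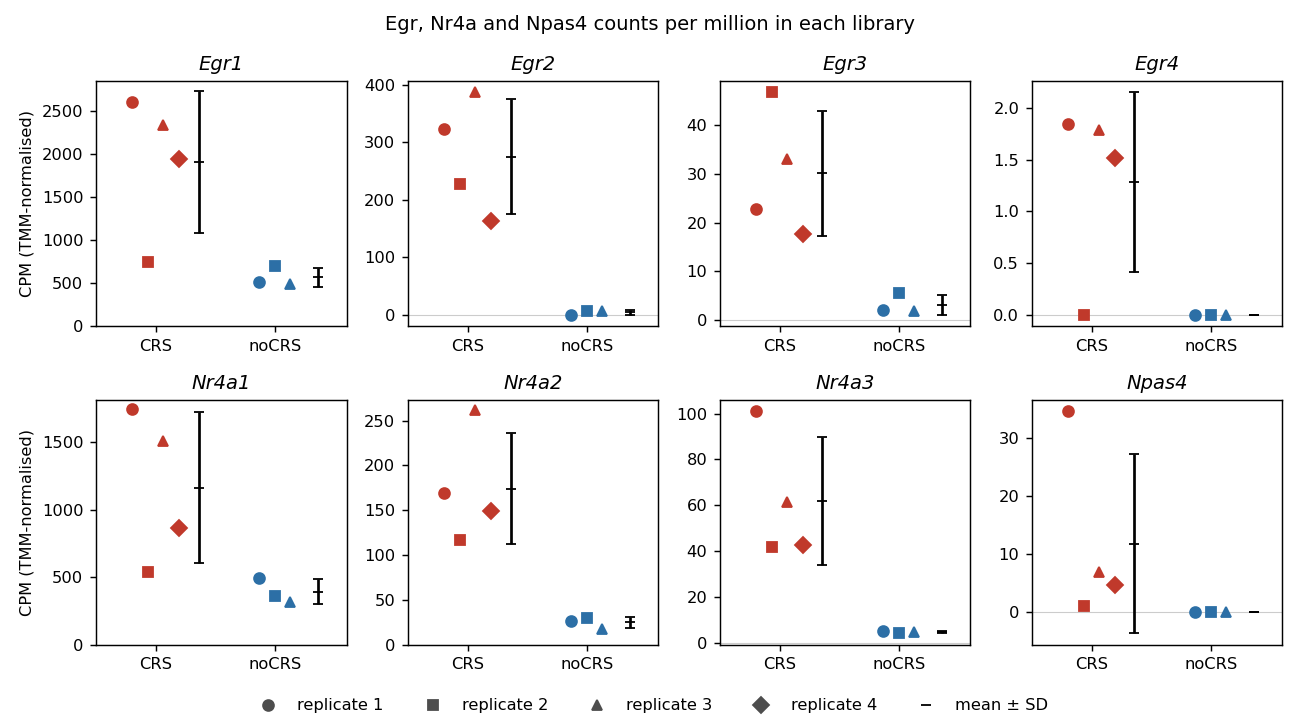
TMM-normalised CPM (linear vertical axes, a separate scale for each gene) of the 8 genes in the 4 CRS and 3 noCRS libraries, 1 symbol a library by replicate number, with the group mean and SD at the right of each group. In every panel but that of Egr4 the CRS symbols all lie above the noCRS symbols, and for Egr1 CRS replicate 2 lies just above the highest noCRS library.

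Egr1, the most abundant of the 8 genes (GRCm38 chr18:34859823-34864984, plus strand), measured 2604, 739, 2337 and 1944 CPM in CRS replicates 1 to 4, against 516, 692 and 491 CPM in noCRS replicates 1 to 3. The groups did not overlap, but CRS replicate 2 stood just above the highest noCRS library, while the other CRS libraries were well clear. The mean was 3.37-fold higher in CRS (log2 fold change 1.75 with an SE of 0.40, edgeR adjusted p = 0.0669), short of the threshold. Without CRS replicate 2 the adjusted p was 0.00575. With any other single library left out Egr1 stayed short of the threshold (edgeR adjusted p up to 0.241).

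Egr2 (chr10:67535475-67542188, plus strand), known in the nervous system for hindbrain patterning and for myelination by Schwann cells as well as for its induction in active neurons, showed a far wider separation. It measured 324, 227, 387 and 162.5 CPM in CRS libraries, against 0, 7.19 and 7.05 CPM in noCRS libraries. The lowest CRS library held 6235 counts and the highest noCRS library 229, and noCRS replicate 1 held none in a total of 39965667. The mean was 57.9-fold higher in CRS, with a log2 fold change of 5.87 ± 1.24 SE. It nevertheless missed the threshold (edgeR adjusted p = 0.0537), and passed when noCRS replicate 1, the library at 0, was left out (adjusted p = 0.00822). Egr2 did not pass with any other single library left out (edgeR adjusted p up to 0.174).

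Egr3 (chr14:70077203-70082614, plus strand), a member known to act downstream of activity and to be needed for muscle spindle formation, was called higher. It measured 22.9, 46.8, 33.1 and 17.7 CPM in CRS libraries, against 2.12, 5.49 and 1.79 CPM in noCRS libraries. CRS replicate 2, the lowest CRS library for Egr1, was the highest for Egr3. The mean was 9.62-fold higher in CRS (log2 fold change 3.27 with an SE of 0.62, edgeR adjusted p = 0.036). The call was lost without any single library other than noCRS replicate 2 (adjusted p up to 0.128), and without that library the noCRS mean was 1.95 CPM in place of 3.13 CPM.

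Egr4 (chr6:85511121-85513589, minus strand), the least abundant of the 8, was close to the limit of detection. It had 61, 0, 54 and 58 counts in CRS libraries and 0 counts in each of the 3 noCRS libraries. CRS replicate 2 was at 0 like the noCRS libraries, so the groups overlapped. The CRS mean of 1.28 ± 0.87 CPM (SD, n = 4) was at least 44.97-fold higher than the noCRS group floor of 0.0286 CPM (3 counts over the 3 libraries), a bound on counting error only, and the edgeR adjusted p was 0.198.

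Among the Nr4a receptors, Nr4a1 (Nur77; chr15:101254269-101274795, plus strand), known in brain and in immune cells as a rapidly induced gene, was the most abundant and differed least. It measured 1744, 536, 1511 and 865 CPM in CRS libraries, against 494.5, 362 and 317 CPM in noCRS libraries. CRS replicate 2 was again the lowest CRS library and stood just above noCRS replicate 1. The mean was 2.98-fold higher in CRS (log2 fold change 1.57 with an SE of 0.40, edgeR adjusted p = 0.0992), and the adjusted p was 0.0312 without CRS replicate 2. With any other single library left out Nr4a1 did not pass (edgeR adjusted p up to 0.305).

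Nr4a2 (Nurr1; chr2:57106830-57124003, minus strand), known for its need in midbrain dopamine neurons and as a marker of some deep cortical and claustral neurons, was called higher. It measured 169, 117, 261 and 149 CPM in CRS libraries, against 26.7, 30.1 and 17.8 CPM in noCRS libraries. Even the lowest CRS library lay well above the highest noCRS library. The mean was 6.996-fold higher in CRS (log2 fold change 2.81 with an SE of 0.34, edgeR adjusted p = 0.00641), and it passed whichever library was left out (adjusted p up to 0.0354).

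Nr4a3 (Nor1; chr4:48045153-48086447, plus strand), the third receptor, had the smallest adjusted p of the 8 genes. It measured 101, 41.9, 61.3 and 42.8 CPM in CRS libraries, against 5.21, 4.27 and 4.74 CPM in noCRS libraries. The noCRS libraries were nearly equal, with an SD of 0.47 CPM, and all spread lay on the CRS side, where replicate 1 was highest. The mean was 13.03-fold higher in CRS (log2 fold change 3.70 with an SE of 0.42, edgeR adjusted p = 0.00547), and it too passed without any single library (adjusted p up to 0.0342).

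Npas4 (chr19:4984355-4990316, minus strand), the factor of this set most restricted to neurons, was detected in CRS libraries alone. It had 1147, 33, 210 and 177 counts in CRS libraries, or 34.6, 1.03, 6.93 and 4.61 CPM, and 0 counts in each noCRS library. CRS replicate 1 held most of the Npas4 counts and CRS replicate 2 the fewest. The CRS mean of 11.8 ± 15.4 CPM (SD, n = 4) was at least 413-fold higher than the noCRS group floor, and without CRS replicate 1 the mean was 4.19 CPM and the bound 147-fold. The edgeR adjusted p was 0.056, and it was 0.0425 without CRS replicate 2. Npas4 did not pass with any other single library left out (edgeR adjusted p up to 0.152).

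**Figure D2:**
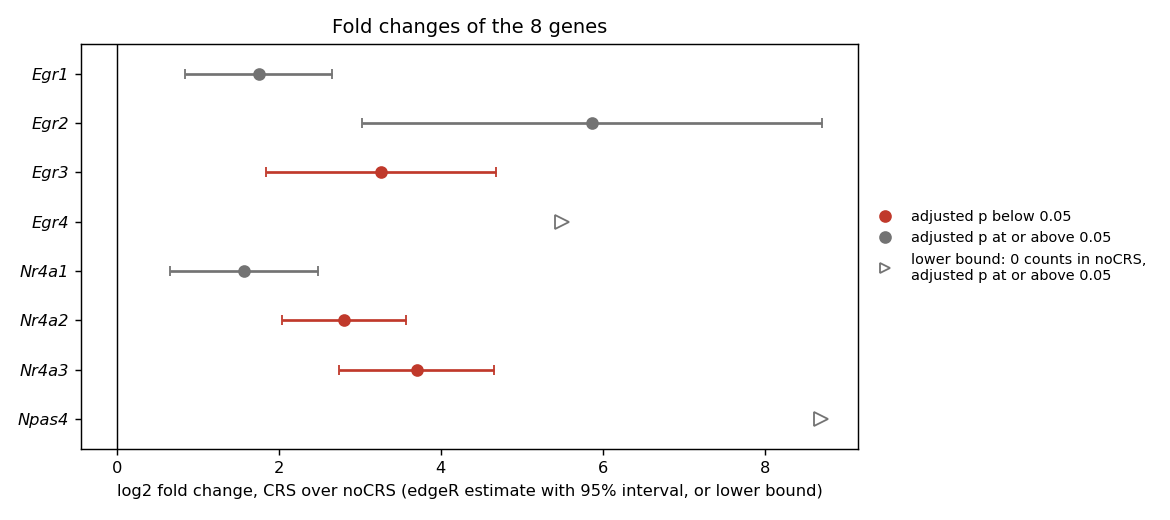
Log2 fold change of each gene, CRS over noCRS, from edgeR with its unadjusted 95% interval (circles), or for the 2 genes with 0 counts in noCRS the log2 of the lower bound on fold (open triangles). Nr4a2, Nr4a3 and Egr3 are the members with an adjusted p below 0.05, while Egr1 and Nr4a1 have the smallest fold changes, 1.75 and 1.57.

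How many of the 8 genes passed depended on the test. DESeq2 called all 8, where it called 9.14% of genes with an adjusted p, and limma-voom called 4, where it called 3.58%. Within edgeR, DESeq2 size factors (2.11% of genes), upper quartile factors (2.18%) and removal of mitochondrial and rRNA genes (2.31%) left 3 called, and total counts alone left 2 (1.75%). Without a filter (1.27%) and with a stricter one (2.83%) 5 were called, at a threshold of 0.1 there were 7 (4%), and with a replicate block 0 (0.0673%). Leaving out CRS replicates 1 to 4 in turn gave 2, 5, 2 and 2 of the 8 (1.10, 2.02, 1.09 and 1.09% of genes), and leaving out noCRS replicates 1 to 3 gave 3, 3 and 2 (1.16, 0.746 and 0.935%).

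The counts and values of the 3 families stand side by side here, without a test of the difference between them, beside 2.07% of all tested genes called higher and 10.1% with groups apart in that direction. Of the Egr genes 1 of 4 rose and 3 of 4 had groups apart, with a median log2 fold change of 4.38. That median takes in Egr4 at its lower bound, a gene whose direction was fixed. Of the Nr4a genes 2 of 3 rose and all 3 had groups apart, with a median of 2.81 and a range of 1.57 to 3.70, which overlaps the Egr values that begin at 1.75. Npas4, alone in its family here, did not pass the threshold. Its groups were apart, but its direction was fixed, since every noCRS library was without counts. Mean log2 CPM of the Egr genes was 5.80 ± 0.78 in CRS and 1.77 ± 1.14 in noCRS (SD, n = 4 and 3), and that of the Nr4a genes was 7.76 ± 0.56 in CRS and 5.15 ± 0.23 in noCRS.

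Within each library the Nr4a mean exceeded the Egr mean, by 1.995, 2.41, 1.75 and 1.70 log2 units in CRS libraries and by 4.88, 2.51 and 2.77 in noCRS libraries. Every CRS library therefore had a smaller gap between the families than every noCRS library, although CRS replicate 2 and noCRS replicate 2 were close. The widest gap, in noCRS replicate 1, is that of the library with 0 counts of Egr2. Log2 means that include genes at 0 depend on the prior count, here 2, so these differences are descriptions without a test, and whether family and group interact was not tested. The Egr mean takes in Egr4, at 0 to 1.84 CPM. Summed as CPM per kilobase of exon, the Egr genes held 54.7, 56.2, 55.9 and 62.5% of the total of the 8 in CRS libraries. In noCRS libraries they held 43.8, 58.6 and 54.0%. The Nr4a genes held 44.6, 43.8, 43.9 and 37.3% in CRS and 56.2, 41.4 and 46.0% in noCRS. By that sum the Egr genes stood above the Nr4a genes in every library but noCRS replicate 1.

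Per kilobase of exon the order of the 8 genes was much alike in both groups. Egr1 (425 ± 184 CPM per kb in CRS, 126 ± 24.4 in noCRS) and Nr4a1 (332 ± 160 and 112 ± 26.3) led. Egr1 was above Nr4a1 in all 4 CRS libraries and in noCRS replicates 2 and 3, and below it in noCRS replicate 1, while the means of the pair lay within their spread over libraries. Egr2 came next in CRS at 81.0 ± 29.4 CPM per kb, above Nr4a2 at 42.9 ± 15.3, in all 4 libraries. In noCRS the order of this pair was the reverse in all 3 libraries, with Egr2 at 1.40 ± 1.21 and Nr4a2 at 6.13 ± 1.56 CPM per kb. Nr4a3 (10.3 ± 4.64 in CRS, 0.792 ± 0.079 in noCRS) and Egr3 (6.84 ± 2.91 and 0.711 ± 0.465) were not separated beyond their spread in either group, and Npas4 and Egr4 had the lowest group means. In CRS replicate 1, however, Npas4 stood above Egr3 (8.37 against 5.20 CPM per kb), and in noCRS replicate 1 Egr2 was at 0 like Npas4 and Egr4.

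Per kilobase, Egr2, Egr3, Nr4a2 and Nr4a3 stood closer to the leading gene of their family in CRS than in noCRS libraries. Egr2 stood at 16.4, 40.6, 21.9 and 11.0% of Egr1 in CRS libraries, against 0, 1.37 and 1.90% in noCRS libraries. Egr3 stood at 0.896, 6.45, 1.44 and 0.929% of Egr1 in CRS libraries, against 0.419, 0.808 and 0.370% in noCRS libraries. Egr4 was at 0 in CRS replicate 2 as in all noCRS libraries, so no such order holds for it. Nr4a3 stood at 3.40, 4.58, 2.38 and 2.90% of Nr4a1 in CRS libraries, against 0.618, 0.691 and 0.878% in noCRS libraries. For Nr4a2 over Nr4a1 the values were 8.40, 18.9, 14.95 and 14.9% in CRS libraries and 4.67, 7.19 and 4.87% in noCRS libraries. None of these ratios, Egr4 aside, overlapped between the groups, though Egr3 over Egr1 was apart only by 0.896% in CRS against 0.808% in noCRS. The ratios share Egr1 or Nr4a1 as denominator. How often ratios of other gene pairs stand apart was not computed, so these are descriptions only. Nr4a1 over Egr1, the ratio of the leading members, overlapped, at 56.8 to 92.8% in CRS and 66.9 to 122% in noCRS.

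**Figure D3:**
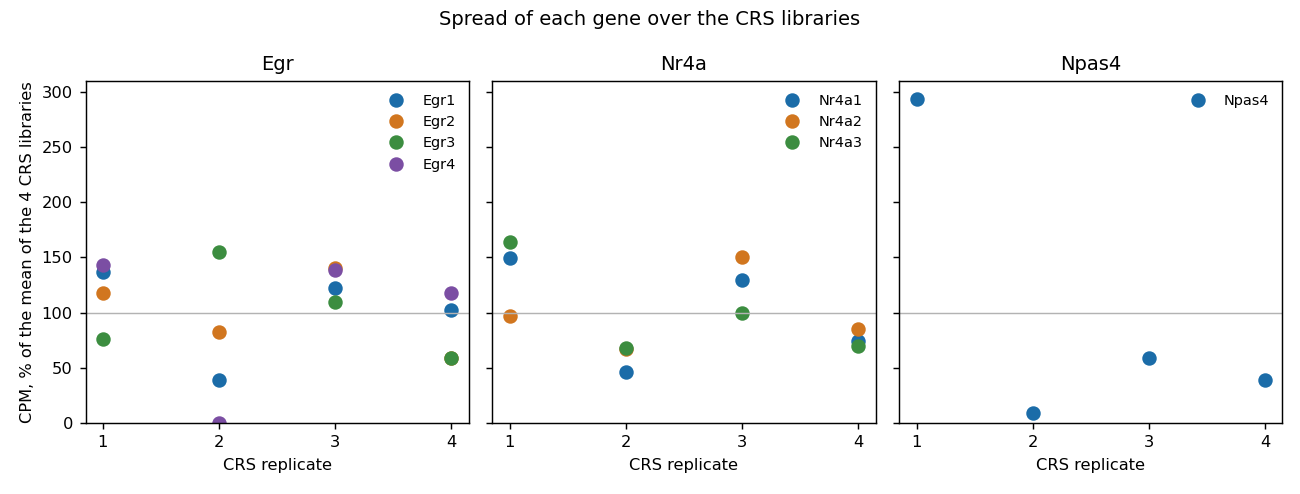
Level of each gene in the 4 CRS libraries as a percentage of its mean over them (vertical axis, linear), 1 panel a family and 1 point a library. CRS replicate 2 is lowest for Egr1 (38.8%), Nr4a1 (46.1%) and Npas4 (8.72%) and highest for Egr3 (155%), and CRS replicate 1 holds 293% of the mean for Npas4.

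The spread over the CRS libraries followed the gene and not the family alone. CRS replicate 2 was lowest of the 4 for 6 of the 8 genes, the exceptions being Egr2 (82.6% of the CRS mean) and Egr3 (155%), for both of which CRS replicate 4 was lowest at 59.0% and 58.9%. CRS replicate 1 was highest for Egr1, Egr4, Nr4a1, Nr4a3 and Npas4. CRS replicate 3 was highest for Egr2 and Nr4a2. Of the 8 genes Npas4 varied most, from 8.72 to 293% of its mean.

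Neuronal markers were also higher in CRS, and the 8 genes are set against them here without a test. The mean log2 CPM of the 13 pan-neuronal markers was 6.98 ± 0.28 in CRS and 4.15 ± 0.37 in noCRS. Of the 13, 6 rose, beside 2.07% of all tested genes called higher. Taken relative to that mean in the same library, Egr1 stood at 3.77 ± 0.62 log2 units in CRS and 4.98 ± 0.57 in noCRS, and Nr4a1 at 3.06 ± 0.61 and 4.44 ± 0.65, so both were lower in CRS on this scale. Nr4a2 hardly differed (0.40 ± 0.51 in CRS, 0.46 ± 0.76 in noCRS). Nr4a3 stood at -1.13 ± 0.45 in CRS and -1.89 ± 0.39 in noCRS, and Egr3 at -2.16 ± 0.86 and -2.65 ± 1.12. Egr2 (1.05 ± 0.61 in CRS, -3.61 ± 3.83 in noCRS) and Npas4 (-4.42 ± 1.81 and -8.24 ± 0.37) were higher in CRS. For Npas4 every noCRS library was at 0, and for Egr2 noCRS replicate 1 was. The pan-neuronal list was uneven, with log2 fold changes from -0.08 for Map2 to 5.34 for Syt1. Excitatory markers differed more between the groups, at a mean log2 CPM of 4.71 ± 0.34 in CRS and -0.59 ± 0.87 in noCRS. Whether a gene stands higher or lower in CRS on such a scale therefore depends on the list it is set against. The part of neuronal markers in the results of these genes was not tested.

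**Figure D4:**
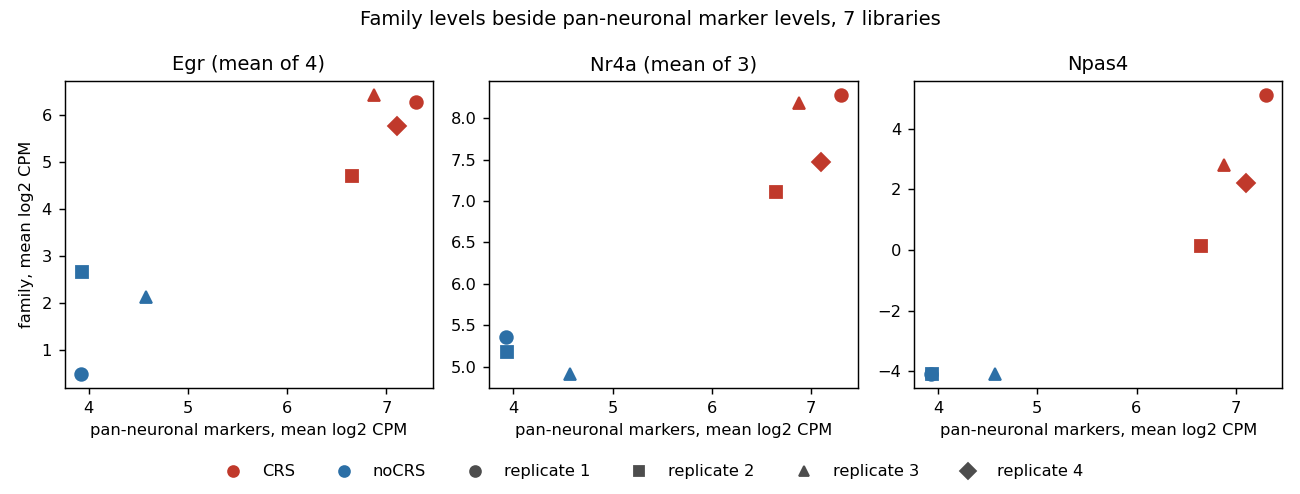
Mean log2 CPM of the Egr genes, of the Nr4a genes and of Npas4 (vertical axes) against the mean log2 CPM of 13 pan-neuronal markers (horizontal axes), 1 symbol a library. The CRS and noCRS libraries form separate groups on both axes, and CRS replicate 2 has the lowest values of the CRS libraries on both, although its summed pan-neuronal level, 4840 CPM, was the highest of the 4. In the Npas4 panel noCRS replicates 1 and 2 nearly coincide.

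Of the 8 inhibitory neuron markers tested 2 rose, beside 2.07% of all tested genes called higher. No astrocyte, oligodendrocyte, microglial or endothelial marker was called. In these lists 4 of 12, 0 of 10, 0 of 9 and 2 of 13 tested markers had an unadjusted edgeR p below 0.05, against 13.6% of all tested genes. Of the 12 astrocyte markers 2 had a positive fold change, and the median log2 fold change of that list was -0.52. Oligodendrocyte precursor markers, led by Pdgfra and Olig1, summed to 1452 to 1903 CPM in CRS libraries and 2711 to 3043 CPM in noCRS libraries. All 10 had a negative fold change and 5 of them were called lower, beside 0.23% of all tested genes. Microglial markers, P2ry12 among the most abundant, summed to 84.4 to 126 CPM in CRS and 91.9 to 135 CPM in noCRS, with Siglech at 0 in all 7 libraries and Tmem119 and Fcrls at 0 in every noCRS library and at most 4.92 and 3.32 CPM in a CRS library. Endothelial and mural markers, led by Rgs5 and Vtn, summed to 227 to 804 CPM in CRS and 128 to 364 CPM in noCRS, so the groups overlapped. For inhibitory neuron markers, led by Sst and Gad1, the sums were 231 to 928 CPM in CRS and 103 to 124 CPM in noCRS. Blood cell markers summed to at most 16.2 CPM in CRS and to 0 in noCRS.

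Other rapid response genes are induced over the same minutes as these factors. Of 35 listed, 34 were tested, 5 rose and 0 fell, with positive fold changes in 33 and a median log2 fold change of 1.01. Over all tested genes, 2.07% were called higher and 49.2% had a positive fold change. With 1 library left out, 1 to 6 of the list were called, beside 0.746 to 2.02% of all tested genes. Fosl1, an AP-1 subunit and 1 of the 5, resembled Npas4 in having 0 counts in noCRS. It entered the test through the CRS group alone, so its direction was fixed. Its CRS level was 7.46 ± 8.32 CPM, or at least 261 times the floor of the noCRS group (edgeR adjusted p = 0.0453), and without CRS replicate 1 the mean was 3.35 CPM and the bound 117-fold. Plk2, a kinase that acts at synapses, rose 1.91-fold, to 1414 ± 219 CPM in CRS against 740.3 ± 116 CPM in noCRS (adjusted p = 0.0374). Fos, the AP-1 subunit most used to mark active neurons, was 3.19-fold higher in CRS (adjusted p = 0.0302), the stress-induced factor Atf3 16.5-fold higher (adjusted p = 0.00972), or 28.5-fold without noCRS replicate 2, and the zinc-finger factor Klf4 3.37-fold higher (adjusted p = 0.026). Arc, whose protein acts in AMPA receptor uptake at synapses, measured 45.2 ± 13.3 CPM in CRS and 35.5 ± 15.7 CPM in noCRS (log2 fold change 0.35 ± 0.38 SE, adjusted p = 0.831), with overlapping groups.

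Genes of the later wave, several of them known targets of these factors, included 5 of 18 that rose and 0 that fell. Of all tested genes 2.07% were called higher, and the median log2 fold change of the list was 2.64. With 1 library left out, 3 to 5 were called, beside 0.746 to 2.02% of all tested genes. Ptgs2, the inducible cyclo-oxygenase, averaged 16.2 ± 6.94 CPM in CRS libraries while every noCRS library was at 0, a difference of at least 566-fold (edgeR adjusted p = 0.00789). Ptgs2 is 1 of 2 genes of this list with 0 counts in every noCRS library, whose direction was fixed. Crem, which encodes activators and the repressor ICER that act at CRE sites, measured 130 ± 35.0 CPM in CRS and 20.9 ± 7.83 CPM in noCRS (adjusted p = 0.0103). Scg2, a granin of secretory vesicles, was 7.50-fold higher in CRS (adjusted p = 0.000685), Rgs4, a brake on G protein signalling, was 11.9-fold higher (adjusted p = 0.00226) and Nrn1, a neurite growth protein, was 3.71-fold higher (adjusted p = 0.034). Bdnf, the neurotrophin whose gene is a known target of Npas4, measured 21.0 ± 14.5 CPM in CRS and 0.58 ± 0.97 CPM in noCRS, with groups apart and short of the threshold (adjusted p = 0.223). Nptx2, a synaptic pentraxin also known as a target of Npas4, measured 3.86 ± 1.11 CPM in CRS and 8.47 ± 6.02 CPM in noCRS (adjusted p = 0.626).

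The partners and co-regulators through which the 8 factors act showed no call in either direction. Of 10 tested, edgeR called 0, DESeq2 0 and limma-voom 0, where they called 2.30, 9.14 and 3.58% of all genes. No unadjusted edgeR p was below 0.05, against 13.6% of all tested genes, and the median log2 fold change was -0.02. A list of 10 is too short for 0 calls to stand apart from those shares. Nab2, a corepressor that binds Egr1 and is itself induced by Egr factors, measured 3.66 ± 1.63 CPM in CRS and 0.63 ± 1.09 CPM in noCRS (log2 fold change 2.53 ± 2.02 SE, adjusted p = 0.731). Arnt2, the dimer partner of Npas4 in neurons, measured 42.0 ± 21.1 CPM in CRS and 48.5 ± 4.38 CPM in noCRS (adjusted p = 0.913). Rxrg, a retinoid receptor of the group that pairs with Nr4a1 and Nr4a2, measured 19.2 CPM in CRS (range 3.99 to 39.9) and 32.0 CPM in noCRS (range 16.9 to 41.2; adjusted p = 0.784).

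Upstream of the 8 genes, 4 of 24 factors and kinases rose and 0 fell, beside 2.07% of all tested genes called higher. The median log2 fold change of the list was 0.47. With 1 library left out, 1 to 4 were called, beside 0.746 to 2.02% of all tested genes. Mef2c, a calcium-regulated factor of cortical neurons, measured 205 ± 104 CPM in CRS and 20.0 ± 2.86 CPM in noCRS (edgeR adjusted p = 0.0117). Ppp3ca, the catalytic subunit of calcineurin, measured 420 ± 71.1 CPM in CRS and 133 ± 27.3 CPM in noCRS (adjusted p = 0.00753). Mrtfb, a coactivator of SRF, was 2.26-fold higher (adjusted p = 0.0446). Srf itself measured 9.85 ± 5.14 CPM in CRS and 8.92 ± 7.10 CPM in noCRS (adjusted p = 0.973), and Creb1 27.9 ± 7.47 and 27.2 ± 7.09 CPM (adjusted p = 0.989). The unadjusted 95% interval of the log2 fold change ran from -1.57 to 1.85 for Srf and from -0.75 to 0.82 for Creb1. Changes within those bounds were therefore not excluded.

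The genes whose profiles over the 7 libraries lay nearest to those of the families were found among 10836 genes with a mean of at least 5 CPM, by the root mean square difference of centred log2 CPM. Nearest to the Egr mean were Rab3b, a vesicle GTPase (0.47 log2 units), the stress-induced factor Atf3 (0.56) and Arhgdig (0.64), against a median of 2.22 over all genes searched. Nearest to the Nr4a mean were Hpcal4, a neuronal calcium-binding protein (0.35), Rab3a (0.41) and Efhd2 (0.41), against a median of 1.46. Nearest to Npas4 were Slc6a17, a vesicular amino acid transporter (0.50), the muscarinic receptor Chrm2 (0.91) and Etl4 (0.94), against a median of 3.59. Slc6a17 measured 8.81 ± 9.35 CPM in CRS and 0.021 ± 0.036 CPM in noCRS. The 7 points fall into separate CRS and noCRS groups, so any gene with a like difference between the groups scores as near.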

How the data were processed

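The deposited table holds the authors' unnormalised counts, whole numbers for each gene in 7 libraries, beside exon coordinates and lengths; no other column of sample values was present. Per the submitters' processing notes, FastQC, HISAT, HISAT2, featureCounts and DESeq2 were used with GRCm38, and no versions were given. Column names end like default output of STAR, another aligner, so the aligner behind the counts was not settled. Per the labels' protocols, libraries were made with a transposase kit, which does not mark strand, and none of the 8 genes shares exon sequence with another gene of the table.

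Libraries were grouped by title. The test was that of edgeR 4.0.16, run in R 4.3.3 (TMM factors, filterByExpr defaults, no covariate), on 17833 genes, with the SE taken as the absolute log2 fold change over the square root of F. The biological coefficient of variation was 0.919. CPM values are TMM-normalised, and log2 CPM used a prior count of 2. Floors and bounds reflect counting error alone, because PCR copies cannot be told from separate molecules. No library was a duplicate (chi-square per gene between 2 libraries at least 80.2). The edgeR step was tested on simulated data.

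The 8 genes, the lists and the tests were chosen with earlier results of these data known. All 8 genes were named, with called members of the other lists, Fos, Arc, Bdnf, Nab2 and Srf, the 2 most abundant genes of each marker list and the 3 nearest profiles per family; Nptx2, Arnt2, Rxrg, Creb1, Slc17a6, Tmem119, Fcrls and Siglech were added after their values were seen. Some genes that this rule names are not reported here. Sequences are from RefSeq (GRCm38.p6). Alternatives were other scalings and filters, DESeq2 1.42.0, limma-voom (limma 3.58.1), removal of mitochondrial and rRNA genes, a replicate block, a threshold of 0.1 and each library left out.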

Additional observations from a re-analysis of the deposited data

How the results depend on the processing

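No direction of any of the 8 genes reversed under the alternatives run. Each library left out in turn gave 142 to 352 genes called of 410, 2 to 5 of the 8 genes called in place of 3, and 5 to 15 genes of the other lists in place of 14, and log2 fold changes of 1.56 to 2.004 for Egr1, 5.28 to 6.30 for Egr2, 2.96 to 3.94 for Egr3, 8.41 to 8.88 for Egr4 (which fell under the filter without CRS replicate 1, 3 or 4), 1.31 to 1.79 for Nr4a1, 2.52 to 2.97 for Nr4a2, 3.36 to 3.83 for Nr4a3 and 10.2 to 12.045 for Npas4. Egr4 and Npas4 were at 0 in noCRS, so their fitted values depend on the prior count. DESeq2 called 1631 genes, 8 of the 8 and 31 of the other lists, with Egr1 at 1.72, Egr2 at 5.84, Egr4 at 7.89, Nr4a1 at 1.54 and Npas4 at 11.1 now past the threshold. limma-voom called 639 genes, with Egr1 (1.77) and Nr4a1 (1.58) past the threshold and Egr3 (2.93) no longer so. Without a filter and with a stricter filter 5 of the 8 passed, with Egr2 (5.88 and 5.84) and Npas4 (11.7 and 11.6) added. With total counts alone, which moved the median of all genes from -0.02 to -0.17, Egr3 (3.09) was short of the threshold and 9 genes of the other lists were called. The replicate block left 12 genes, 0 of the 8 and 1 of the other lists, with Egr3 at 3.57, Nr4a2 at 2.82 and Nr4a3 at 3.76. Deviations of same-numbered libraries correlated at 0.0153, -0.00319 and 0.0228. CRS replicates 1 and 3 correlated best with their own number, and CRS replicate 2 with noCRS replicate 3 (0.0205). Correlations this small cannot settle whether the numbers pair the libraries, so the calls lost under the block cannot be set aside. At a threshold of 0.1 there were 714 genes and 7 of the 8. The remaining scalings and the removal of mitochondrial and rRNA genes moved no call of the 8.

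The difference in mean log2 CPM between CRS and noCRS was 3.39 to 4.48 for Egr, 2.43 to 2.82 for Nr4a, 5.81 to 7.47 for Npas4, -1.86 to -0.68 for Nr4a minus Egr, 1.94 to 3.27 for Npas4 minus Egr, 3.38 to 4.65 for Npas4 minus Nr4a and 0.79 to 1.32 for the 8 genes minus the pan-neuronal markers when 1 library was left out. A prior count of 0.5 gave 8.64 for Npas4, 4.07 for Npas4 minus Egr and 6.03 for Npas4 minus Nr4a, since Npas4 was at 0 in noCRS. The causes of the other changes were not tested. At this depth Egr4 and Npas4 were at 0 in every noCRS library, so only lower bounds on their folds can be given.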
